A study of Saccharomyces cerevisiae YPS1009 with 40 samples.

Results

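The 9 genes followed here encode 7 hexose transporters of baker's yeast and its 2 glucose sensors. The transporter genes were HXT1 (YHR094C), HXT2 (YMR011W), HXT3 (YDR345C), HXT4 (YHR092C), HXT5 (YHR096C), HXT6 (YDR343C) and HXT7 (YDR342C), and the sensor genes were SNF3 (YDL194W) and RGT2 (YDL138W). They were chosen by name and identifier from the 6714 genes of the deposited table, and all 9 were found there and passed the filter on low counts. Yeast takes up glucose by facilitated diffusion through the Hxt carriers, which span the plasma membrane and differ in how tightly they bind sugar. Snf3 and Rgt2 resemble the carriers but have long cytoplasmic tails and act as receptors, Snf3 for scarce and Rgt2 for plentiful glucose. When a sensor is engaged, the casein kinases Yck1 and Yck2 and the ubiquitin ligase adaptor Grr1 bring about the destruction of Mth1 and Std1, and the repressor Rgt1, which works with Cyc8 and Tup1, leaves the HXT promoters. A separate branch, in which the Snf1 kinase acts against the repressor Mig1, holds genes for scarce glucose silent while glucose is abundant.

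RNA was read from 5 haploid strains derived from YPS1009, a wild strain from oak soil, grown in rich medium with glucose (YPD) in shaken flasks at 30 °C. The groups were euploid and the aneuploids YPS1009_Chr4, YPS1009_Chr12, YPS1009_Chr14 and YPS1009_Chr15, each with a full extra copy of the chromosome in its name, in log phase and at days 1, 3 and 7 of culturing (24, 72 and 168 hours), with 2 cultures in each of the 20 groups. By the study's strain list all 5 are MATa; euploid and YPS1009_Chr12 carry hoΔ::HphMX and the other 3 carry ho-Δ1, so that for these 3 the ho allele and the extra chromosome cannot be told apart. By the labels each aneuploid is 1 strain, though the markers given below go against this for YPS1009_Chr15 replicate 1. All 4 are compared with the same euploid cultures. Glass beads were used to extract RNA from the later samples and not from log phase, so extraction and growth stage cannot be told apart either.

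Levels are given as CPM, read counts relative to the TMM-scaled size of the library, and differences are on the log2 scale. They are relative to the other transcripts of the same library: a gene that rose in this sense may still have fallen per cell, and less RNA per cell and fewer cells with that RNA cannot be told apart in bulk samples. Amounts per cell were not analysed here. Total counts per library were 4182717 to 7036849 in log phase, 1997415 to 3792145 at day 1, 1033073 to 2228477 at day 3 and 725316 to 2324046 at day 7. In every aneuploid library the genes of the extra chromosome stood above the rest, by 0.75 to 1.44 on the log2 scale. The 2 euploid libraries of day 7 differed from each other more than any other pair of replicates, so results that change without one of them are given with that value. Each gene's spread was estimated over all 20 groups together. A standard error (SE) or p-value is therefore not a measure of the spread in the groups compared, and at euploid day 7 the SE can be far smaller than the gap between the cultures. The libraries labelled YPS1009_Chr15 replicate 1 went against the strain list in log phase and at day 1: the 4 alpha-cell markers summed to 3478 CPM in log phase and 2148 CPM at day 1, against 18.2 to 28.0 and 34.0 to 55.8 CPM in the 8 libraries of the other strains. Its 5 a-cell markers summed to 21.8 CPM in log phase, against 976 to 1622 CPM, while replicate 2 had 2819 CPM of a-cell and 29.4 CPM of alpha-cell markers. Later the markers did not set replicate 1 apart in the same way: its alpha-cell markers summed to 121 CPM at day 3 and 127.8 CPM at day 7, within the 51.4 to 123.7 and 60.9 to 128.1 CPM of the other strains, and its a-cell markers to 55.5 CPM at day 3, below the others' 76.8 to 209 CPM, and 78.8 CPM at day 7, within their 57.3 to 196 CPM. The part of mating type in the differences of YPS1009_Chr15 was not tested, and its calls that changed without replicate 1 are given with that value.

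Coordinates and sequences were taken from RefSeq's R64 assembly of the laboratory strain S288C, whose bases need not be those of YPS1009. On chromosome IV lie SNF3 (chrIV:111580-114234), RGT2 (chrIV:213351-215642), HXT7 (chrIV:1154216-1155928), HXT6 (chrIV:1159608-1161320) and HXT3 (chrIV:1162957-1164660). On chromosome VIII lie HXT4 (chrVIII:287081-288811), HXT1 (chrVIII:290913-292625) and HXT5 (chrVIII:294669-296447), and HXT2 (chrXIII:288079-289704) lies on chromosome XIII. HXT7 and HXT6 are neighbours on the minus strand. Their coding sequences, of 1713 bases each, differ at 3 positions: T1632C, G1666A and T1677C, counted from 1 at the start codon, with the base of HXT6 first. The first 1631 bases are identical, and so are the 84 bases before the start codon. The last 100 coding bases, with the differing bases in capitals, show all that separates the counts of this pair within the coding sequence:
HXT6 coding end: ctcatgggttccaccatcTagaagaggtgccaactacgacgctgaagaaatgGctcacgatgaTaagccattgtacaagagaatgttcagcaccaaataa
HXT7 coding end: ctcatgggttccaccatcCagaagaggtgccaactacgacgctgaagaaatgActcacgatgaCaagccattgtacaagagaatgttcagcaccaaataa
A read from elsewhere in either coding sequence cannot be placed by its bases, so values for HXT6 and HXT7 singly are uncertain, and their sum is given beside most of them. Whether such reads were counted was not given in the sources used here. If they were left out, the levels of both genes and of their sum are too low beside those of other genes. The next closest pair of members, HXT1 and HXT3, was identical at 83.3% of aligned coding bases.

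The upstream regions of the members differ in how often they hold the letters CGGANNA, the core of the sites that Rgt1 binds. Searched on both strands over the 800 bases before the start codon, with no overlapping matches, the motif occurred 8 times before HXT3 and 6 times before HXT1. Of 6003 windows of the same length, 58.3% held it at least once, 0.183% at least 6 times and 0.0167% at least 8 times. HXT5 had 4 matches, which 1.97% of windows reached, and HXT2 and HXT4 had 3 each, which 7.03% reached. HXT7 had 2, which 23.4% reached, and HXT6 had 1, and these letters were absent from the windows of SNF3 and RGT2. Stretches of 150 bases were picked for holding the most matches, in capitals, with 5 before HXT3 (chrIV:1165052-1165201, minus strand) and 3 before HXT1 (chrVIII:292997-293146, minus strand):
HXT3 upstream: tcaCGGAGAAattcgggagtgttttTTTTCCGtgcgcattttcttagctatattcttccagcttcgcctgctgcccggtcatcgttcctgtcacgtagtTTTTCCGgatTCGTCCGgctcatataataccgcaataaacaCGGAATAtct
HXT1 upstream: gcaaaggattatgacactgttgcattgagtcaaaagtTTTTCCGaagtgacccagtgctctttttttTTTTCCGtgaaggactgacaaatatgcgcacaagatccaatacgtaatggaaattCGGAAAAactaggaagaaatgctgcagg
The letters CCCCT, the stress response element that Msn2 and Msn4 bind, were in 48.2% of the windows on either strand. HXT6 and HXT7 had 4 matches each, which 1.37% of windows reached. HXT1, HXT3, HXT4 and RGT2 had 1 each, and HXT2 and SNF3 had none. HXT5 had 2, which 16.2% of windows reached, both shown here in capitals as the reverse complement (chrVIII:296736-296935, minus strand):
HXT5 upstream: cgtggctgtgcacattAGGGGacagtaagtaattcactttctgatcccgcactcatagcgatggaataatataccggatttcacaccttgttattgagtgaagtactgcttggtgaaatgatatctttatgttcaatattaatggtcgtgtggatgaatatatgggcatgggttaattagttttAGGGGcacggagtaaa
A match is a run of letters and not a measured site.

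In euploid log phase the transporter transcripts were ordered, per kb of coding sequence, from HXT2 (739 and 805 CPM per kb in the 2 cultures) through HXT3 (488 and 519), HXT1 (172 and 143) and HXT7 (91.8 and 97.3) to HXT6 (15.8 and 16.7). RGT2 followed with 15.02 and 13.8, HXT4 with 5.997 and 9.95, SNF3 with 6.13 and 6.95, and HXT5 was last with 2.53 and 2.46. The cultures of HXT4 and SNF3 overlapped, and those of the other neighbours in this order did not. At day 1 HXT5 led with 2377 and 2604 CPM per kb, followed by HXT6 (507 and 447) and HXT7 (194 and 224), and HXT1 was last with 2.77 and 4.09. SNF3, HXT2 and RGT2 stood between them, and the cultures of HXT2 overlapped those of SNF3 and RGT2. HXT5 also led at day 3, with 7019.6 and 5393 CPM per kb. At day 7 HXT5 (7136 and 2956) overlapped HXT2 (233 and 4293), whose 2 cultures lay far apart.

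**Figure D1:**
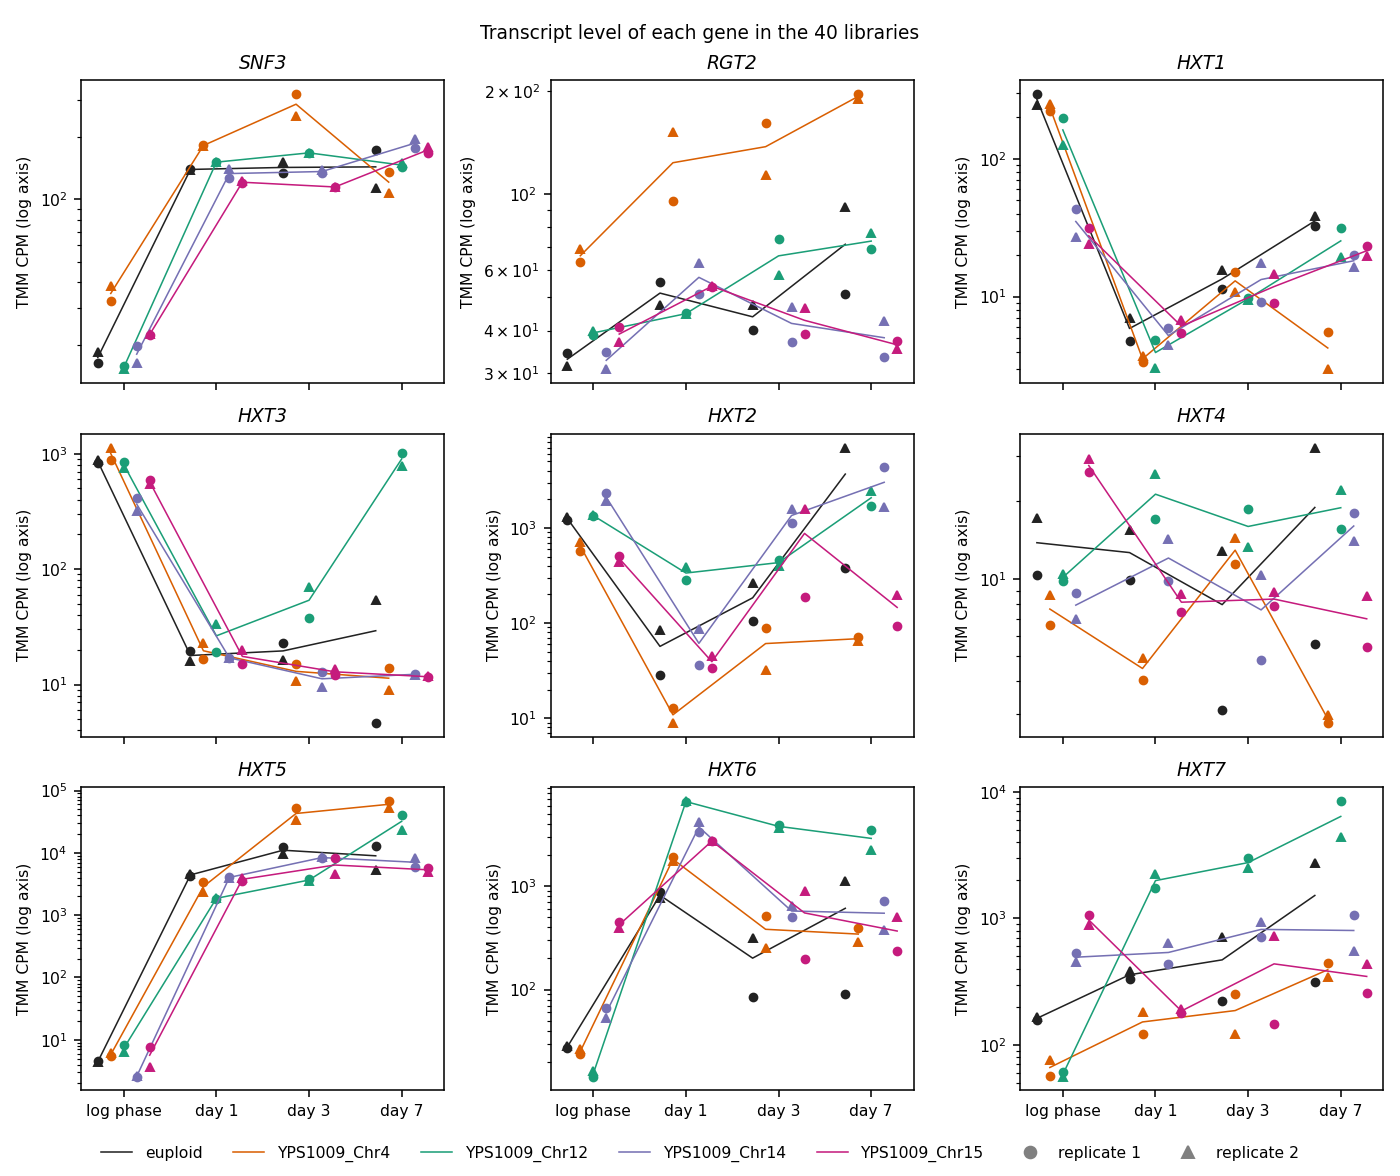
Transcript level of each of the 9 genes in TMM-scaled CPM (log axis) at the 4 time points, with a point for each of the 40 libraries (circles replicate 1, triangles replicate 2) and a line through the mean of the 2 cultures of each strain. HXT5 lay at 2.56 to 8.15 CPM in log phase and at 1810 CPM or more in all later libraries, HXT1 and HXT3 were lower at day 1 than in log phase in all 5 strains, and HXT3 returned to 1016 and 784 CPM in YPS1009_Chr12 at day 7.

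Against log phase, euploid had 4 members higher and 3 lower at day 1, where 34.3% of all 5864 genes tested were higher and 35% lower. At day 3 the counts were 4 higher and 3 lower, beside 38.7% and 41.4% of all genes. At day 7 they were 5 higher and 2 lower, beside 37.5% and 38.2%. With 9 genes, these counts stood close to what the shares of the whole transcriptome would give, and the members are described by size and direction. The median of their log2 changes was 0.64, 0.41 and 1.55 over the 3 days in turn, beside -0.00058, -0.16 and -0.02 over all genes tested. The day 7 median was 0.63 without euploid day 7 replicate 2 and 2.48 without replicate 1. Glucose-repressed genes (ADH2, FBP1, PCK1, ICL1, MLS1, JEN1 and ADY2) served as a check of the labelled stages, and 7 of 7 were higher than in log phase at each of the 3 days.

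Among the sensors, SNF3 had 16.3 and 18.4 CPM in euploid log phase and 139 and 139 at day 1, 134 and 151 at day 3 and 174 and 113 at day 7. All 6 later libraries lay above the log-phase pair without overlap. The sensor of scarce glucose rose by 3.01 (SE 0.20, adjusted p = 2.5e-13) at day 1, by 3.04 (SE 0.21, adjusted p = 1.3e-13) at day 3 and by 3.03 (SE 0.21, adjusted p = 1.9e-13) at day 7, in edgeR's quasi-likelihood test with Benjamini-Hochberg adjustment, as in all tests below. RGT2, the sensor of plentiful glucose, moved far less, from 34.4 and 31.6 CPM to 55.5 and 47.4 at day 1 and 40.2 and 47.5 at day 3. It rose by 0.64 (SE 0.23, adjusted p = 0.0165) at day 1 and by 1.16 (SE 0.23, adjusted p = 6.5e-05) at day 7, and its change at day 3 was 0.41 (SE 0.26, adjusted p = 0.141). Its day 7 cultures had 51.04 and 91.8 CPM, and that change was 0.63 without replicate 2 and 1.47 without replicate 1 of day 7. The day 7 call was lost when only the groups compared were fitted (1.18) and with at least 10 counts in every library (0.13). The day 1 call was lost without euploid day 1 replicate 1 (0.52), euploid log phase replicate 2 (0.58) or euploid day 1 replicate 2 (0.63), and also with DESeq2's size factors (0.43), with total counts (0.69) and with no filter (0.52).

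HXT1 and HXT3 encode the low-affinity carriers of cells in plentiful glucose. HXT1 had 294 and 245 CPM in log phase, 4.74 and 7.01 at day 1, 11.3 and 15.5 at day 3 and 32.5 and 38.2 at day 7. It was lowest at day 1 and recovered in part, with no overlap between the stages. HXT1 fell by 5.49 (SE 0.31, adjusted p = 7.7e-15) at day 1 and by 2.91 (SE 0.27, adjusted p = 6.3e-11) at day 7 against log phase. Between days 1 and 3, where 2 members rose and 1 fell beside 30.9% and 36.3% of all genes, HXT1 rose again by 1.17 (SE 0.42, adjusted p = 0.0146). Between days 3 and 7, where 5 members and 21.8% of all genes rose and 13.5% fell, it rose by 1.41 (SE 0.35, adjusted p = 0.00289). Of the 5 rises between days 3 and 7, HXT1, HXT2, HXT4, HXT7 and RGT2, none held without euploid day 7 replicate 2, where the changes were 1.26, 1.04, -0.56, -0.59 and 0.21 in turn, nor when only the groups compared were fitted. The first rise of HXT1 was lost without euploid day 1 replicate 1 (0.94) or euploid day 3 replicate 2 (0.92) and with total counts (0.89), and the second without euploid day 3 replicate 1 (1.21) or euploid day 7 replicate 2 (1.26). HXT3 had 831 and 885 CPM in log phase and 19.7 and 16.0 at day 1. Its fall was 5.59 (SE 0.48, adjusted p = 2.4e-11) at day 1 and 5.46 (SE 0.50, adjusted p = 4.6e-11) at day 3. At day 7 HXT3 stood at 4.64 and 53.9 CPM, a change of -4.70 (SE 0.46, adjusted p = 2.1e-10) from log phase, and the change was -7.52 without replicate 2 and -3.99 without replicate 1 of that day.

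HXT2 and HXT4 encode carriers of higher affinity that are induced when glucose is low. HXT2 was the most abundant of the 9 in log phase, with 1202 and 1308 CPM, and had 28.5 and 85.3 at day 1 and 104 and 264 at day 3. It fell by 4.45 (SE 0.89, adjusted p = 5.9e-05) and 2.77 (SE 0.82, adjusted p = 0.00322) at these days, the second of which was lost without euploid day 3 replicate 1 (-2.25). At day 7 the cultures were at 379.5 and 6980.2 CPM, one below and one above log phase. The change there was 1.55 (SE 0.78, adjusted p = 0.0706), and it was 2.48 without replicate 1 and -1.72 without replicate 2 of day 7, past the threshold in opposite directions. HXT4 was scarce throughout, with 10.4 and 17.2 CPM in log phase and 9.85 and 15.4 at day 1. Its changes were -0.08 (SE 0.39, adjusted p = 0.862), -0.73 (SE 0.54, adjusted p = 0.219) and 0.72 (SE 0.39, adjusted p = 0.0935) at the 3 days, and the sign of the first and the last turned without euploid day 1 replicate 1 (0.18) or euploid log phase replicate 2 (0.30) at day 1 and without euploid day 7 replicate 2 (-1.28) at day 7. At day 3 HXT4 fell without euploid day 3 replicate 2 (-2.12). At day 7 it rose without euploid day 7 replicate 1 (1.25) or euploid log phase replicate 2 (1.09).

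HXT5, whose carrier is known from slowly growing and resting cells, changed the most. Its counts were 26 and 18 in the euploid log-phase libraries, 4.50 and 4.37 CPM, and its levels were 4229 and 4632 CPM at day 1, 12488 and 9594 at day 3 and 12695 and 5258 at day 7. No log-phase library of any strain exceeded 8.15 CPM and no later one was below 1810 CPM. In euploid HXT5 rose by 9.95 (SE 0.58, adjusted p = 1.1e-14) at day 1, 11.27 (SE 0.60, adjusted p = 2.0e-15) at day 3 and 10.97 (SE 0.60, adjusted p = 5.4e-15) at day 7. Between days 1 and 3 it rose further by 1.32 (SE 0.39, adjusted p = 0.004), a call lost with at least 10 counts in every library (0.45). The rise against log phase held in all 4 aneuploids at all 3 days, from 7.99 (SE 0.53, adjusted p = 2.3e-13) in YPS1009_Chr12 at day 1 to 13.34 (SE 0.64, adjusted p = 1.1e-16) in YPS1009_Chr4 at day 7. In that last group HXT5 reached 67418 and 53081 CPM, and its reads made up 2.13% and 2.02% of the counts of these libraries.

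HXT6 and HXT7 encode high-affinity carriers whose genes glucose represses. HXT6 had 27.0 and 28.6 CPM in euploid log phase, 869 and 765 at day 1, 84.5 and 318 at day 3 and 90.9 and 1131 at day 7. The replicates were close at the first 2 stages and apart at the last 2. HXT6 rose by 4.88 (SE 0.76, adjusted p = 1.7e-06) at day 1, 2.86 (SE 0.70, adjusted p = 5.3e-04) at day 3 and 4.47 (SE 0.74, adjusted p = 3.8e-06) at day 7, and between days 1 and 3 it fell by 2.02 (SE 0.67, adjusted p = 0.00928), a call lost without euploid day 3 replicate 1 (-1.36). The call at day 3 against log phase was lost without euploid day 3 replicate 2 (1.60), and at day 7 the rise was 1.71 without replicate 2. HXT7 went from 157 and 167 CPM to 332 and 384, 222 and 718 and 314 and 2721. Its change was 1.14 (SE 0.63, adjusted p = 0.103) at day 1, and it rose by 1.54 (SE 0.63, adjusted p = 0.0279) at day 3 and 3.23 (SE 0.67, adjusted p = 8.3e-05) at day 7. These calls were lost without euploid log phase replicate 1 (1.5), euploid log phase replicate 2 (1.58) or euploid day 3 replicate 2 (0.45) at day 3 and without euploid day 7 replicate 2 (0.95) at day 7, and the day 3 call also with DESeq2's size factors (1.16), with total counts (1.35) and with no filter (1.34). Summed, the pair changed by 2.63 (SE 0.66, adjusted p = 8.5e-04), 1.82 (SE 0.65, adjusted p = 0.0115) and 3.49 (SE 0.69, adjusted p = 4.2e-05) at the 3 days against log phase. Between days 1 and 3 the sum changed by -0.81 (SE 0.63, adjusted p = 0.26), short of the threshold, unlike HXT6 alone.

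The share of each transporter among HXT1 to HXT7, in counts per coding kb within 1 library, does not depend on the scaling between libraries. It does depend on whether reads that fit both HXT6 and HXT7 were counted, since each gene was divided by its full coding length. HXT5, HXT6 and HXT7 together took 7.27% and 7.31% in the euploid log-phase libraries, where HXT2 alone held 49.6% ± 1.205 (SD, n = 2) and HXT3 held 32.4% ± 0.270. At day 3 the 3 genes took 97.9% ± 1.32 (SD, n = 2), of which HXT6 and HXT7 made up 6.12% ± 5.18 and HXT5 the rest. The stages lay much farther apart than the cultures of a stage, though in an exact permutation test 2 cultures against 2 can reach no two-sided p below 0.33. At day 7 the euploid cultures parted, with 96.6% in replicate 1 and 54.4% in replicate 2. In log phase the 3 genes took 56.0% and 54.5% in YPS1009_Chr15, 17.2% and 17.8% in YPS1009_Chr14, and 3.25% and 3.26% in YPS1009_Chr12. At day 1 YPS1009_Chr12 was the one strain in which HXT6 led in both libraries, with 61.2% ± 2.73 of HXT6 and 16.7% ± 0.213 of HXT5, whereas HXT6 and HXT5 held 14.8% ± 2.09 and 77.0% ± 1.03 in euploid (SD, n = 2 each). In YPS1009_Chr4 HXT5 alone took 98.4% ± 0.300 at day 3 and 98.6% ± 0.0325 at day 7. All 7 genes together made up 0.259% ± 0.00346 of a euploid library's counts in log phase and up to 3.46% of one of YPS1009_Chr12 at day 7.

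**Figure D2:**
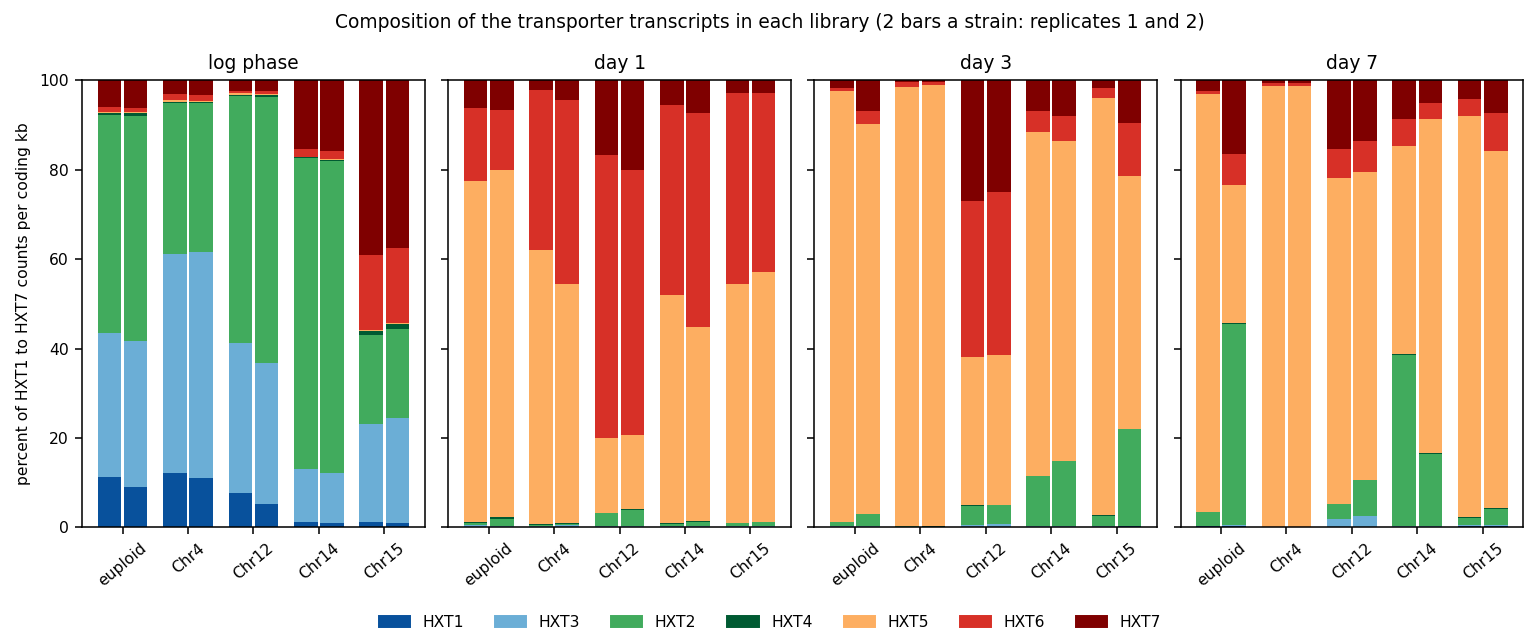
Share of each of HXT1 to HXT7 in the summed counts per coding kb of these 7 genes (percent), with a bar for each library, 2 a strain, at the 4 time points. HXT1, HXT2 and HXT3 filled 92.2% of the euploid log-phase bars on average and 2.04% at day 3, and the red and dark red bands of HXT6 and HXT7 were widest in YPS1009_Chr12 at days 1 and 3.

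Each aneuploid was also compared with its own log phase. YPS1009_Chr4 had 4 members higher and 3 lower (beside 33.1% and 29.6% of all genes) at day 1, 5 members higher and 3 lower (beside 34.8% and 41% of all genes) at day 3 and 5 members higher and 3 lower (beside 33.3% and 42.5% of all genes) at day 7. HXT1, HXT2 and HXT3 fell at each of these days, as HXT1 and HXT3 did in euploid. HXT5 rose by 8.95 (SE 0.55, adjusted p = 5.1e-14) at day 1 and by 12.85 (SE 0.63, adjusted p = 2.7e-16) at day 3, with 3410.2 and 2345 CPM and 51869.6 and 33967 CPM. SNF3 rose by 2.36 (SE 0.19, adjusted p = 1.4e-11), 3.02 (SE 0.20, adjusted p = 9.3e-14) and 1.78 (SE 0.21, adjusted p = 1.4e-08) at the 3 days. The last of these turned to -0.045 with total counts, which moved the median of all genes from -0.73 to -2.52 in that comparison.

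YPS1009_Chr12 had 5 members higher and 3 lower (beside 30.5% and 31.3% of all genes) at day 1, 5 members higher and 2 lower (beside 32.5% and 32.3% of all genes) at day 3 and 5 members higher and 1 lower (beside 35.6% and 38.3% of all genes) at day 7. HXT6 had 14.3 and 16.3 CPM in log phase and 6548 and 6642 at day 1, a rise of 8.75 (SE 0.90, adjusted p = 1.8e-09), and HXT7 went from 60.7 and 56.1 to 1737 and 2239 CPM, a rise of 5.09 (SE 0.73, adjusted p = 7.6e-07). At day 7 the pair was higher than in log phase by 7.56 (SE 0.85, adjusted p = 4.9e-09) for HXT6 and 6.77 (SE 0.79, adjusted p = 9.1e-09) for HXT7. Summed, the pair rose by 6.86 (SE 0.80, adjusted p = 2.2e-08) at day 1 and 6.98 (SE 0.81, adjusted p = 7.8e-09) at day 7. Between days 1 and 3 few genes changed in this strain, with 1.04% of all genes higher and 2.1% lower. No member passed the threshold over that step (4 had an unadjusted p under 0.05, and DESeq2 called 0). Between days 3 and 7, HXT1, HXT2, HXT3 and HXT5 rose, 4 members beside 24.6% of all genes, while 27.5% of all genes fell. HXT1 rose by 1.33 (SE 0.40, adjusted p = 0.00759) and HXT2 by 2.27 (SE 0.80, adjusted p = 0.0193), and these calls were lost without YPS1009_Chr12 day 7 replicate 1 (1.01) for HXT1 and without YPS1009_Chr12 day 3 replicate 1 (2.38), YPS1009_Chr12 day 3 replicate 2 (2.16) or YPS1009_Chr12 day 7 replicate 2 (1.97) for HXT2.

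YPS1009_Chr14 had 4 members higher and 3 lower (beside 34.7% and 33.1% of all genes) at day 1, 3 members higher and 2 lower (beside 38.4% and 39.5% of all genes) at day 3 and 4 members higher and 2 lower (beside 38.8% and 39.1% of all genes) at day 7. HXT3 fell at each of these days, with changes of -4.42 (SE 0.46, adjusted p = 1.5e-09), -4.999 (SE 0.50, adjusted p = 3.6e-10) and -4.89 (SE 0.48, adjusted p = 2.7e-10). HXT1 fell as well, with changes of -2.72 (SE 0.32, adjusted p = 1.8e-08), -1.46 (SE 0.31, adjusted p = 1.2e-04) and -0.93 (SE 0.28, adjusted p = 0.00333), the last of which was lost without YPS1009_Chr14 log phase replicate 1 (-0.55). In YPS1009_Chr15 there were 3 members higher and 5 lower (beside 34% and 32.2% of all genes) at day 1, 2 members higher and 3 lower (beside 36.8% and 39.6% of all genes) at day 3 and 2 members higher and 4 lower (beside 38.4% and 40.9% of all genes) at day 7. HXT7 and HXT4 both fell at day 1. HXT7 went from 1063 and 879.8 CPM to 177 and 193 at day 1, a fall of 2.39 (SE 0.65, adjusted p = 0.00193), and HXT4 from 25.9 and 29.1 to 7.47 and 8.77 CPM, a fall of 1.76 (SE 0.39, adjusted p = 2.3e-04). HXT6 rose by 2.69 (SE 0.67, adjusted p = 9.4e-04) at day 1 and then stood at 197 and 906 CPM at day 3 and 237 and 499.7 at day 7, beside 449.8 and 397 in log phase. The sum of HXT6 and HXT7 changed by 1.07 (SE 0.63, adjusted p = 0.135) at day 1, short of the threshold, so the opposite moves of the 2 genes rest on how reads were assigned between them. The 3 day 1 calls named for YPS1009_Chr15 held without its replicate 1 at all time points, whereas those of HXT1 at day 3 (-0.70), HXT2 at day 7 (-1.13) and HXT7 at day 7 (-0.98) were lost. SNF3 and HXT5 rose in all 4 aneuploids at all 3 days.

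In log phase, 5 of the 36 pairs of a member and an aneuploid were higher than euploid and 3 were lower, beside 7.21% and 2.27% of all such gene and strain pairs. By strain, the shares of all genes higher and lower were 7.45% and 2.2% in YPS1009_Chr4, 5.53% and 2.61% in YPS1009_Chr12, 4.45% and 0.563% in YPS1009_Chr14 and 11.4% and 3.7% in YPS1009_Chr15. Fitting only the groups compared called more pairs in both directions. HXT2 and HXT3 were called in no strain in the fit over all groups, though some cultures lay apart from euploid. HXT2 had 1202 to 1308 CPM in euploid, 578 to 712 in YPS1009_Chr4 and 444 to 512 in YPS1009_Chr15. It had 1335 to 1362 in YPS1009_Chr12 and 1897 to 2306 in YPS1009_Chr14. HXT3 had 320 to 412 CPM in YPS1009_Chr14 and 547 to 593 in YPS1009_Chr15, against 831 to 885. YPS1009_Chr4 has a further copy of 5 members, and the comparison asks whether their transcripts followed. The sensors were both higher: SNF3 had 32.3 and 38.3 CPM against 16.3 and 18.4 in euploid, a difference of 1.03 (SE 0.20, adjusted p = 9.9e-04), and RGT2 had 63.2 and 69.0 CPM, a difference of 1.00 (SE 0.23, adjusted p = 0.00399). The median over all 766 tested genes of chromosome IV was 0.81, with 0.59 and 1.05 as quartiles, and it was -0.16 over the other 5098 genes. The call for RGT2 was lost without euploid replicate 2 (0.94). The 3 transporters stood below the lower quartile: HXT3 differed by 0.23 (SE 0.38, adjusted p = 0.772), HXT6 by -0.14 (SE 0.67, adjusted p = 0.932) and HXT7 by -1.29 (SE 0.63, adjusted p = 0.219). HXT6 turned to 0.15 with total counts in place of TMM. None of the 3 passed the threshold in the fit over all groups, and the sum of HXT6 and HXT7 differed by -1.05 (SE 0.63, adjusted p = 0.334). When only the groups compared were fitted, HXT3 was called higher (0.35, adjusted p = 0.00183) and HXT7 lower (-1.16, adjusted p = 7.4e-21). The median over the 5 members was 0.23 on the log2 scale, against 0.81 for the chromosome. The 3 transporters are neighbours with shared sequence and are not independent of one another.

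HXT1 was called in 3 of the 4 aneuploids in log phase, more than any other member. It had 43.1 and 27.0 CPM in YPS1009_Chr14 and 31.3 and 23.9 CPM in YPS1009_Chr15, against 294 and 245 CPM in euploid, with no overlap. It was lower by 2.93 (SE 0.25, adjusted p = 2.1e-09) and 3.28 (SE 0.26, adjusted p = 7.4e-11), and by 0.74 (SE 0.23, adjusted p = 0.0426) in YPS1009_Chr12. Without replicate 1 of YPS1009_Chr15 the difference in that strain was -3.55 (adjusted p = 1.9e-07). The call in YPS1009_Chr12 was lost without euploid replicate 1 (-0.60), euploid replicate 2 (-0.86) or YPS1009_Chr12 replicate 2 (-0.45), and with DESeq2's size factors (-0.72), total counts (-0.76), nuclear genes alone (-0.68) and no filter (-0.70). HXT1 in YPS1009_Chr4, with 221 and 250.3 CPM, differed by -0.20 (SE 0.23, adjusted p = 0.653). In YPS1009_Chr15 both genes of the high-affinity pair were higher as well. There HXT6 had 449.8 and 397 CPM against 27.0 and 28.6, and HXT7 had 1063 and 879.8 against 157 and 167.

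The differences of HXT6 and HXT7 in YPS1009_Chr15 were 3.93 (SE 0.72, adjusted p = 2.3e-04) and 2.58 (SE 0.65, adjusted p = 0.00596), that of their sum was 2.88 (SE 0.67, adjusted p = 0.00279), and without replicate 1 of YPS1009_Chr15 they were 3.77 and 2.38, both past the threshold. HXT7 lost its call without euploid replicate 1 (2.54) or euploid replicate 2 (2.63). In YPS1009_Chr14 HXT7 had 534 and 452 CPM, above both euploid cultures, and its difference was 1.61 (SE 0.63, adjusted p = 0.186). The sum with HXT6 differed there by 1.54 (SE 0.64, adjusted p = 0.23). HXT4 was higher in YPS1009_Chr15, with 25.9 and 29.1 CPM and a difference of 1.01 (SE 0.35, adjusted p = 0.0459), a call lost without euploid replicate 1 (0.67), YPS1009_Chr15 replicate 1 (1.10), euploid replicate 2 (1.40) or YPS1009_Chr15 replicate 2 (0.93) and, at 1.04, without replicate 1 of YPS1009_Chr15 at all time points.

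**Figure D3:**
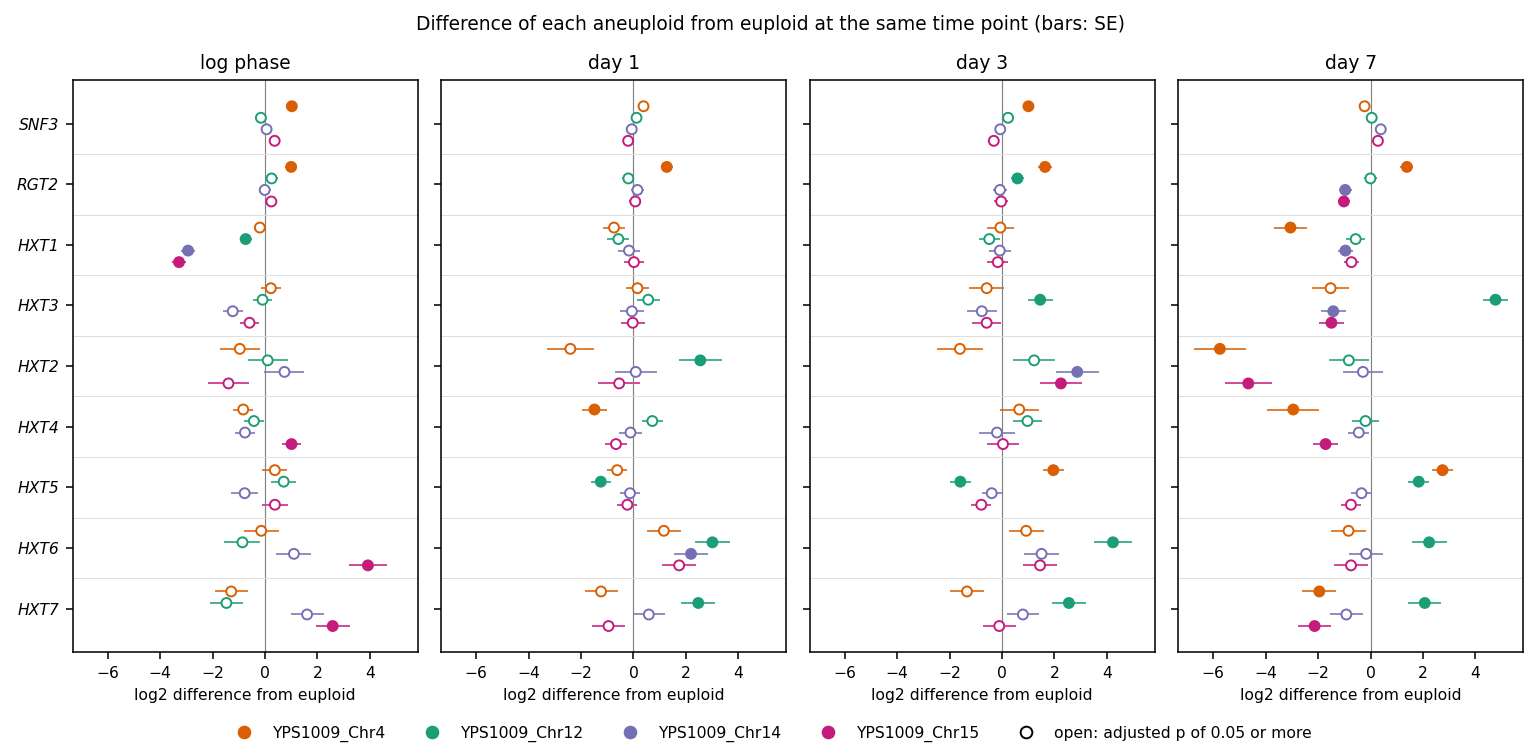
Difference of each aneuploid from euploid at the same time point for the 9 genes (log2 scale, bars are standard errors of the fit), with filled points where the adjusted p was under 0.05 and open points elsewhere. HXT1 in log phase in YPS1009_Chr14 and YPS1009_Chr15 (-2.93 and -3.28), HXT6 in YPS1009_Chr12 at days 1 and 3 (3.01 and 4.23) and HXT3 in YPS1009_Chr12 at day 7 (4.77) are among the filled points farthest from 0.

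At day 1, 5 pairs were higher and 2 lower, beside 9.22% and 5.63% of all pairs. By strain, the shares of all genes higher and lower were 11.3% and 5.66% in YPS1009_Chr4, 16.2% and 14.8% in YPS1009_Chr12, 4.95% and 1.79% in YPS1009_Chr14 and 4.42% and 0.273% in YPS1009_Chr15. YPS1009_Chr12 accounted for 4 of these 7 pairs, and no member passed the threshold in YPS1009_Chr15 (1 had an unadjusted p under 0.05, and DESeq2 called 0). In YPS1009_Chr12 HXT6 reached 6548 and 6642 CPM, against 869 and 765 in euploid, and HXT7 reached 1737 and 2239 against 332 and 384. The differences were 3.01 (SE 0.68, adjusted p = 0.0012) and 2.47 (SE 0.65, adjusted p = 0.00434), and the sum was higher by 2.87 (SE 0.67, adjusted p = 0.0015). Both calls held without any 1 of the 4 libraries. HXT2 was higher as well, with 283 and 388 CPM against 28.5 and 85.3 and a difference of 2.55 (SE 0.82, adjusted p = 0.0181), while HXT5 was lower by 1.25 (SE 0.39, adjusted p = 0.0151). HXT2 lost its call without euploid replicate 1 (1.98) or YPS1009_Chr12 replicate 2 (2.31), and HXT5 without YPS1009_Chr12 replicate 1 (-1.21), euploid replicate 2 (-1.16) or YPS1009_Chr12 replicate 2 (-1.29).

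In YPS1009_Chr14 HXT6 had 3339 and 4143 CPM at day 1, higher by 2.19 (SE 0.66, adjusted p = 0.0402), a call lost without euploid replicate 1 (2.29), YPS1009_Chr14 replicate 1 (2.34), euploid replicate 2 (2.08) or YPS1009_Chr14 replicate 2 (2.03), and the sum with HXT7 differed by 1.86 (SE 0.64, adjusted p = 0.0824). In YPS1009_Chr15 HXT6 was at 2739 and 2729.6 CPM and in YPS1009_Chr4 at 1912 and 1736 CPM, in both above the 2 euploid cultures and in neither past the threshold. RGT2 was higher in YPS1009_Chr4, with 95.4 and 152 CPM and a difference of 1.27 (SE 0.23, adjusted p = 2.3e-04), whereas SNF3, also on chromosome IV, differed by 0.38 (SE 0.18, adjusted p = 0.163). HXT4 was lower there by 1.49 (SE 0.47, adjusted p = 0.0275), on 12 and 20 counts, and lost the call without YPS1009_Chr4 replicate 1 (-1.37), euploid replicate 2 (-1.15) or YPS1009_Chr4 replicate 2 (-1.66) and with total counts (-1.29).

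At day 3, 9 pairs were higher and 1 was lower, beside 20.6% and 15.7% of all pairs. By strain, the shares of all genes higher and lower were 17.7% and 13.3% in YPS1009_Chr4, 38.4% and 31.5% in YPS1009_Chr12, 8.94% and 6.31% in YPS1009_Chr14 and 17.3% and 11.6% in YPS1009_Chr15. YPS1009_Chr12, in which more of all genes differed from euploid than in any other strain at this day, had 5 members past the threshold, beside a median log2 difference of 0.22 over all genes. HXT6 had 3904 and 3695 CPM against 84.5 and 318, and HXT7 had 3006 and 2514 against 222 and 718, with differences of 4.23 (SE 0.73, adjusted p = 9.9e-06) and 2.55 (SE 0.65, adjusted p = 0.00104) and of 3.29 (SE 0.68, adjusted p = 1.1e-04) for the sum. HXT5 stood at 3832 and 3500.2 CPM, below the 12488 and 9594 CPM of euploid, lower by 1.59 (SE 0.39, adjusted p = 7.4e-04). HXT3, at 37.6 and 69.8 CPM, was higher by 1.46 (SE 0.48, adjusted p = 0.00884), and RGT2 by 0.59 (SE 0.25, adjusted p = 0.0405). HXT3 lost its call without euploid replicate 2 (1.24) or YPS1009_Chr12 replicate 2 (0.95), and RGT2 without euploid replicate 1 (0.48), YPS1009_Chr12 replicate 1 (0.41) or euploid replicate 2 (0.72).

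YPS1009_Chr4 went the other way for HXT5 at day 3, with 51869.6 and 33967 CPM and a difference of 1.96 (SE 0.40, adjusted p = 3.1e-04). The size of this difference depends on the scaling between libraries. As a part of all counts, HXT1 to HXT7 together made up 2.22% and 1.85% there and 1.03% and 0.99% in euploid. The sensors of YPS1009_Chr4 were higher by 1.01 (SE 0.20, adjusted p = 1.8e-04) for SNF3 and 1.64 (SE 0.27, adjusted p = 2.0e-05) for RGT2. With total counts, which lowered the median of all genes to -0.80 in this comparison, they differed by 0.16 and 0.78 and lost their calls. HXT2 was higher in YPS1009_Chr14, with 1114 and 1589 CPM against 104 and 264, by 2.87 (SE 0.83, adjusted p = 0.0194), and lost the call without euploid replicate 1 (2.35), YPS1009_Chr14 replicate 1 (3.11) or YPS1009_Chr14 replicate 2 (2.59). In YPS1009_Chr15 the 2 cultures had 188 and 1564 CPM of HXT2, one within the range of euploid, and the call of 2.25 (SE 0.81, adjusted p = 0.0374) was lost without euploid replicate 1 (1.73), euploid replicate 2 (3.07) or YPS1009_Chr15 replicate 2 (0.02). It was 3.06 without replicate 1 of YPS1009_Chr15 at all time points.

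Day 7 had 6 pairs higher and 12 lower, beside 15.1% and 18.4% of all pairs. By strain, the shares of all genes higher and lower were 22.6% and 31.8% in YPS1009_Chr4, 17.9% and 15.4% in YPS1009_Chr12, 7.21% and 9.11% in YPS1009_Chr14 and 12.5% and 17.3% in YPS1009_Chr15. Many of these calls rested on 1 of the euploid cultures: without euploid replicate 2 there were 12 higher and 4 lower, and without replicate 1 there were 6 higher and 19 lower. HXT3 in YPS1009_Chr12 lay beyond either euploid culture. It had 1016 and 784 CPM, against 4.64 and 53.9 in euploid and 8.90 to 13.8 CPM in the other aneuploids, a difference of 4.77 (SE 0.46, adjusted p = 4.5e-09), with 4.06 to 7.58 when 1 library was left out. In that strain HXT3 rose between days 3 and 7 by 4.07 (SE 0.44, adjusted p = 3.8e-08), and its day 7 level differed from log phase by 0.16 (SE 0.38, adjusted p = 0.72). HXT5 rose in YPS1009_Chr12 over the same interval by 3.13 (SE 0.42, adjusted p = 6.5e-07), to 41232 and 22997 CPM, and was then higher than euploid by 1.84 (SE 0.40, adjusted p = 6.8e-04). HXT6 and HXT7 were higher there by 2.24 (SE 0.66, adjusted p = 0.0105) and 2.07 (SE 0.64, adjusted p = 0.0131), and lost their calls without euploid replicate 1 (1.36) or YPS1009_Chr12 replicate 1 (1.88) for HXT6 and without euploid replicate 1 (1.23) or YPS1009_Chr12 replicate 1 (1.52) for HXT7. Their sum was higher by 2.12 (SE 0.65, adjusted p = 0.0122).

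In YPS1009_Chr4 HXT5 stood at 67418 and 53081 CPM at day 7, higher by 2.75 (SE 0.41, adjusted p = 2.4e-06), beside a median of all genes of -0.59. The size of this difference depends on the scaling between libraries. As a part of all counts, HXT1 to HXT7 together made up 2.16% and 2.05% there and 1.28% and 2.62% in euploid. Of these 7 genes' counts per coding kb, HXT5 held 98.6% and 98.6% in YPS1009_Chr4 and 93.5% and 30.9% in euploid. RGT2, at 196 and 189.9 CPM, was higher by 1.39 (SE 0.25, adjusted p = 3.8e-05). Its sign turned with total counts (-0.58), which moved the median of all genes to -2.48. HXT2 was lower than in either euploid culture, with 71.8 and 65.3 CPM and a difference of -5.75 (SE 0.99, adjusted p = 2.1e-05), and -2.47 without euploid replicate 2. HXT1 had 2 and 1 counts against 35 and 115 in euploid, 8.56-fold lower with a 95% counting interval of 2.87 to 41.98. HXT4 had 1 and 1 counts against 6 and 97, 8.82-fold lower with an interval of 2.38 to 73.8, and its fitted difference lost the call without YPS1009_Chr4 replicate 1 (-2.94), euploid replicate 2 (-0.95) or YPS1009_Chr4 replicate 2 (-3.07). HXT7 was lower by 1.95 (SE 0.65, adjusted p = 0.0129), and the call was lost or turned without YPS1009_Chr4 replicate 1 (-2.25), euploid replicate 2 (0.33) or YPS1009_Chr4 replicate 2 (-1.89). The sum of HXT6 and HXT7 differed by -1.54 (SE 0.64, adjusted p = 0.044). The counting intervals of HXT1 and HXT4 cover counting error only.

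The remaining day 7 calls were lower than euploid, and each was lost or turned when some 1 library was left out. In YPS1009_Chr14 HXT1 differed by -0.96 (SE 0.30, adjusted p = 0.0252), HXT3 by -1.42 (SE 0.47, adjusted p = 0.0377) and RGT2 by -0.97 (SE 0.24, adjusted p = 0.00672). They lost their calls without YPS1009_Chr14 replicate 1 (-1.12), euploid replicate 2 (-0.81) or YPS1009_Chr14 replicate 2 (-0.85) for HXT1, without YPS1009_Chr14 replicate 1 (-1.43), euploid replicate 2 (1.40) or YPS1009_Chr14 replicate 2 (-1.42) for HXT3 and without YPS1009_Chr14 replicate 1 (-0.78) or euploid replicate 2 (-0.44) for RGT2. In YPS1009_Chr15 HXT2 differed by -4.66 (SE 0.89, adjusted p = 3.1e-04) and RGT2 by -1.02 (SE 0.24, adjusted p = 0.00225), with -1.39 and -0.49 without euploid replicate 2, neither past the threshold. HXT3, HXT4 and HXT7 differed by -1.49, -1.71 and -2.13 in that strain. The calls were lost, or the sign turned, without YPS1009_Chr15 replicate 1 (-1.48), euploid replicate 2 (1.32) or YPS1009_Chr15 replicate 2 (-1.49) for HXT3, without YPS1009_Chr15 replicate 1 (-1.38) or euploid replicate 2 (0.28) for HXT4 and without YPS1009_Chr15 replicate 1 (-1.80) or euploid replicate 2 (0.15) for HXT7. All 3 also missed the threshold without replicate 1 of YPS1009_Chr15 at all time points (-1.55, -1.44 and -1.89). The sum of HXT6 and HXT7 in YPS1009_Chr15 differed by -1.58 (SE 0.64, adjusted p = 0.0612), short of the threshold.

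**Figure D4:**
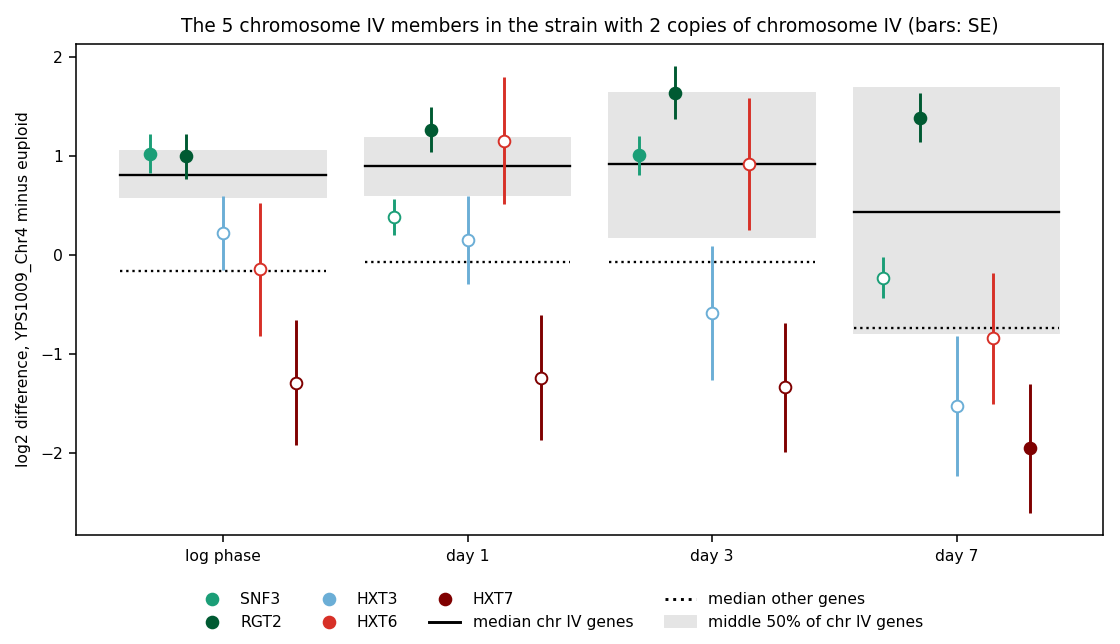
Difference of YPS1009_Chr4 from euploid for the 5 members on chromosome IV (log2 scale, bars are standard errors, filled points have an adjusted p under 0.05), with the median (line) and middle 50% (grey) of all tested genes of chromosome IV and the median of the other genes (dotted). RGT2 was above the chromosome's median of 0.81, 0.90, 0.92 and 0.43 at the 4 time points, and HXT7 lay below the grey band at each.

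The change from log phase to day 3 was compared between each aneuploid and euploid as a difference of changes. It was called for 8 of 36 pairs, beside 26.9% of all pairs (15.2% higher and 11.7% lower). By strain, the shares of all genes higher and lower were 11.3% and 8.7% in YPS1009_Chr4, 33.2% and 26.1% in YPS1009_Chr12, 1.96% and 1.47% in YPS1009_Chr14 and 14.3% and 10.6% in YPS1009_Chr15. In YPS1009_Chr12 the difference was positive for HXT6, 5.09 (SE 0.98, adjusted p = 8.3e-05), for HXT7, 4.02 (SE 0.91, adjusted p = 4.5e-04), and for HXT3, 1.55 (SE 0.62, adjusted p = 0.0312), and it was negative for HXT5, -2.30 (SE 0.62, adjusted p = 0.00215). HXT3 lost its call without euploid log phase replicate 2 (1.5), euploid day 3 replicate 2 (1.33), YPS1009_Chr12 log phase replicate 2 (1.47) or YPS1009_Chr12 day 3 replicate 2 (1.04). In YPS1009_Chr14 and YPS1009_Chr15, where HXT1 was already low in log phase, its fall to day 3 was shallower by 2.85 (SE 0.47, adjusted p = 4.7e-04) and 3.12 (SE 0.46, adjusted p = 1.1e-05). HXT1 ended day 3 at 9.14 and 17.5 CPM, 9.04 and 14.6 CPM and, in euploid, 11.3 and 15.5 CPM, which overlap. In YPS1009_Chr15 the change of HXT2 differed by 3.64 (SE 1.12, adjusted p = 0.0177) and that of HXT7 by -2.69 (SE 0.89, adjusted p = 0.0266). HXT2 lost its call without euploid day 3 replicate 1 (3.12), YPS1009_Chr15 log phase replicate 2 (3.54) or YPS1009_Chr15 day 3 replicate 2 (1.42), and HXT7 without euploid log phase replicate 1 (-2.65), YPS1009_Chr15 log phase replicate 1 (-2.55), YPS1009_Chr15 day 3 replicate 1 (-1.95), euploid log phase replicate 2 (-2.73) or euploid day 3 replicate 2 (-1.60) and, at -1.77, without replicate 1 of YPS1009_Chr15 at all time points. The summed change of HXT6 and HXT7 was larger than in euploid by 4.65 (SE 0.93, adjusted p = 1.2e-04) in YPS1009_Chr12 and differed by -2.32 (SE 0.89, adjusted p = 0.0559) in YPS1009_Chr15. No member passed the threshold in YPS1009_Chr4, where 1 had an unadjusted p under 0.05 and DESeq2 called 1.

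The counts assigned to HXT6 relative to HXT7 were highest at day 1 in all 5 strains. In euploid there were 0.172 HXT6 counts per HXT7 count in both log-phase libraries, 2.61 and 1.99 at day 1, 0.381 and 0.443 at day 3, and 0.290 and 0.416 at day 7. At day 1 the ratios were 15.7 and 9.57 in YPS1009_Chr4, 3.77 and 2.97 in YPS1009_Chr12, 7.67 and 6.47 in YPS1009_Chr14, and 15.5 and 14.1 in YPS1009_Chr15. In log phase all 10 libraries had more counts on HXT7 than on HXT6, from 0.119 in YPS1009_Chr14 to 0.452 in YPS1009_Chr15. The ratios of the euploid replicates lay close together at day 7, although the CPM of HXT6 and of HXT7 differed widely between them. Reads were mapped to a genome that carries both copies, and how a read that fits both was placed was not given in the sources used here, so these ratios describe the assigned counts.

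**Figure D5:**
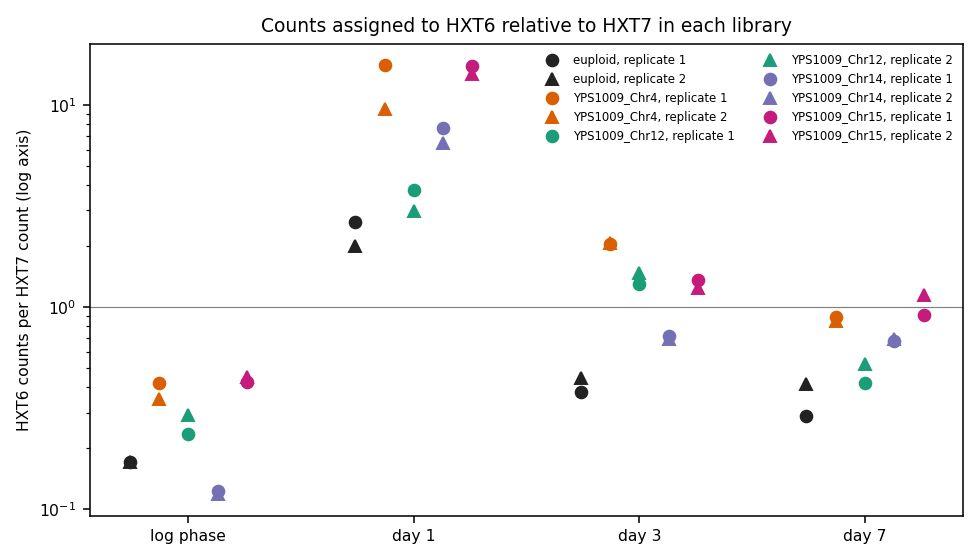
Counts assigned to HXT6 per count assigned to HXT7 (log axis) in each of the 40 libraries, by time point, coloured by strain, with circles for replicate 1 and triangles for replicate 2 and a line at equal counts. All 10 day 1 libraries lie above the line, at 1.99 to 15.7, and all 10 log-phase libraries below it, at 0.119 to 0.452.

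Of 10 other genes of the hexose transporter family (HXT8 to HXT11, HXT13 to HXT17 and GAL2), 9 were tested, and 7 were higher in euploid at day 3 than in log phase and 2 missed the threshold, beside 38.7% higher and 41.4% lower of all genes, with a median log2 change of 2.83. The median was 2.17 when the 2 genes without a log-phase count were given set values. HXT15 was set at a bound against 3 counts per library, and the other gene, without counts at day 3 as well, at 0. These transporters were scarce, and the 10 genes together summed to 23.0 and 23.8 CPM in log phase and 101 and 122 CPM at day 3. HXT11 had 2.25 and 0.728 CPM in log phase and 25.8 and 25.6 at day 3, a change of 3.97 (SE 0.60, adjusted p = 7.1e-07). HXT9, HXT10 and HXT15 also passed the test, on day 3 counts of 5 and 3, 4 and 7, and 0 and 4 against log-phase counts of 1 and 0, 2 and 0, and none, too few to give a fold. HXT9 and HXT11 are near-identical copies, as are HXT15 and HXT16, so counts between them are uncertain.

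Of 8 regulators of the sensor pathway, 4 were higher and 4 lower in euploid at day 3, close to the 38.7% and 41.4% of all genes, with a median of 0.0035 beside -0.16 over all genes. MTH1, the co-repressor that the sensors' signal removes, went from 11.8 and 11.6 CPM to 578 and 649.8, a rise of 5.71 (SE 0.39, adjusted p = 1.2e-13). Its paralogue STD1 went from 69.9 and 63.8 to 3.09 and 7.31 CPM, a change of -3.64 (SE 0.45, adjusted p = 2.8e-08). The co-repressor gene CYC8 changed by -4.26 (SE 0.38, adjusted p = 3.7e-11) and the kinase gene YCK2 by -3.71 (SE 0.37, adjusted p = 3.2e-10), both lower. Of 10 regulators of glucose repression, 6 were higher and 3 lower beside the same shares of all genes, with a median of 1.23. HXK2, the main hexokinase of cells in glucose, went from 1228 and 1290.4 CPM to 3.09 and 4.57, a change of -8.33 (SE 0.65, adjusted p = 1.9e-12). SIP2, a subunit of the Snf1 kinase, rose by 5.29 (SE 0.37, adjusted p = 2.1e-13), REG1, which directs the phosphatase that acts on Snf1, by 3.58 (SE 0.35, adjusted p = 1.8e-10), and SNF1 itself by 2.14 (SE 0.29, adjusted p = 7.5e-08).

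The genes whose levels ran most like a member's were found by Pearson's correlation over the 20 group means of log2 CPM, among 4680 genes with a mean of at least 50 counts per library. The groups share strains, time points and libraries, so the values are descriptions. HXT5 was matched most closely, by CSR2 (r = 0.99), ATG39 (0.99) and ATH1 (0.99), of which ATG39 encodes a receptor for autophagy of the nucleus and ATH1 the acid trehalase. HXT6 ran with HXK1 (0.95), AGP2 (0.95) and GLK1 (0.93), and HXK1 and GLK1 encode the glucose-phosphorylating enzymes of cells short of glucose. SNF3 ran with NDE2 (0.97), COX26 (0.96) and GDH2 (0.96), and COX26 encodes a subunit of cytochrome c oxidase. HXT3 ran with INA1 (0.91), YOL014W (0.91) and SSE1 (0.90), HXT1 with ZRC1 (0.89), GBP2 (0.87) and CCT8 (0.87), and HXT2 with NIS1 (0.82), PDP3 (0.80) and YND1 (0.80). RGT2 ran with MTC5 (0.93), KRE2 (0.90) and DOS2 (0.88), and the matches of RGT2 and of SNF3 all lie on chromosome IV, as these 2 members do. HXT4 and HXT7 had the weakest matches, MEF1 (0.70), PSR1 (0.67) and FUR4 (0.65) for HXT4 and YNL193W (0.70), IMA2 (0.70) and YOR338W (0.69) for HXT7.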

How the data were processed

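RNA was sequenced from 40 yeast cultures, 2 biological replicates in each of 20 groups, after depletion of ribosomal RNA, with stranded libraries. Per the submitters' processing notes and methods, the authors trimmed reads with Trimmomatic 0.39, mapped them with BWA 0.7.12-r1039 to the S288C genome carrying the SNPs of YPS1009 (release not given in the sources used here) and counted them per gene with HTSeq 0.7.2. The deposited table holds these raw counts for 6714 genes. Spiked-in Sz. pombe counts were not used here, so values are relative within a library.

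The 5864 genes that reached 10 counts in 2 or more libraries were scaled by TMM and tested with edgeR 4.0.16 (R 4.3.3, limma 3.58.1), by the quasi-likelihood test with 1 coefficient per group over all 40 libraries, Benjamini-Hochberg adjustment over all genes tested and a threshold of 0.05. The standard error is the log2 change divided by the root of F, with each gene's spread estimated over all groups and not from the groups compared alone. DESeq2 1.42.0 and other scalings and filters were tried as alternatives. Leaving out replicate 1 of YPS1009_Chr15 at all time points was added after seeing the data. The fit was also run on simulated counts with the same spread for all genes and groups. The replicates here were uneven, so that run does not bear on the calls given. Figures and other values were made with matplotlib 3.10.9, scipy 1.17.1 and pandas 2.3.3.

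The members and gene lists were chosen with earlier results of these data known. All 9 members are named. Of each list of other transporters and regulators, at most the 4 called genes with the largest absolute change in euploid at day 3 are named, and for each member the 3 genes most correlated with it over the group means of log2(CPM + 1).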

Additional observations from a re-analysis of the deposited data

Results flagged for a closer look

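For 8 of 36 pairs of a member and an aneuploid, beside 26.9% of all gene and strain pairs, the change from log phase to day 3 differed from that of euploid when the difference of changes was itself tested (edgeR's quasi-likelihood test, Benjamini-Hochberg adjustment over all genes). All 4 aneuploids share the euploid cultures. In YPS1009_Chr12 the differences were 1.55 for HXT3, -2.30 for HXT5, 5.09 for HXT6 and 4.02 for HXT7 on the log2 scale. For HXT1 they were 2.85 in YPS1009_Chr14 and 3.12 in YPS1009_Chr15. In YPS1009_Chr15 they were also 3.64 for HXT2 and -2.69 for HXT7. Of the 8 libraries behind each, leaving out 1 lost the call in 4 cases for HXT3 in YPS1009_Chr12 (1.04 to 1.93), in 3 for HXT2 (1.42 to 4.48) and in 5 for HXT7 in YPS1009_Chr15 (-4.28 to -1.60).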

How the results depend on the processing

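For single members, 174 differences or changes were recomputed under the alternatives, 2226 values in all. Apart from euploid against log phase and the chromosome IV members of YPS1009_Chr4 in log phase, only called results were followed. New calls elsewhere could therefore not enter these 174. Direction and side of the threshold held for 168 of 174 with DESeq2's size factors, 168 with its Wald test, 168 with no filter, 170 with nuclear genes only and 146 with total counts, and for 601 of 728 values with 1 library left out. Direction turned with total counts for RGT2 (-0.33 at day 3 and -0.27 at day 7) and SNF3 (-0.045 at day 7) in YPS1009_Chr4 against its log phase, and against euploid for HXT6 in log phase (0.15) and RGT2 at day 7 (-0.58). With nuclear genes only, HXT4 in euploid at day 1 turned to 0.034. With at least 10 counts in every library, which left 2132 genes and only 6 members, changes from log phase turned for RGT2 in euploid at day 3 (-1.05), in YPS1009_Chr4 at days 3 (-0.72) and 7 (-0.37) and in YPS1009_Chr12 at day 7 (-0.37), and in YPS1009_Chr4 for HXT7 at day 3 (-0.29) and SNF3 at day 7 (-0.13). With 1 library left out, direction turned within the ranges -0.58 to 0.30 for HXT4 at day 1, -1.72 to 2.48 for HXT2 and -1.28 to 1.25 for HXT4 at day 7 in euploid, -0.56 to 2.84 for HXT4 and -0.59 to 2.78 for HXT7 between its days 3 and 7, and at day 7 against euploid -2.79 to 0.33 for HXT7 in YPS1009_Chr4, -2.13 to 1.40 for HXT3 in YPS1009_Chr14, and -2.20 to 1.32 for HXT3, -2.25 to 0.28 for HXT4 and -2.97 to 0.15 for HXT7 in YPS1009_Chr15. Apart from the smaller sets of genes and samples, the cause was not tested.

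Counts of members moved by more than 1.5 times as follows. With at least 10 counts in every library, euploid against log phase had 1 lower at day 1, 2 higher at day 3 and 0 lower at day 7, and the aneuploids against euploid had 0 pairs lower in log phase, 1 at day 1 and 0 at day 3. Fitting only the groups compared gave 3 members higher in euploid at day 7, and against euploid 11 pairs higher and 11 lower in log phase, 5 lower at day 1, 3 lower at day 3, and 2 higher and 3 lower at day 7. Total counts gave 1 pair lower at day 1, 2 lower at day 3 and 3 higher at day 7, and a median of 0.51 for the 5 chromosome IV members in YPS1009_Chr4 in log phase. Summing HXT6 and HXT7 left 3 pairs higher at day 1, and leaving out replicate 1 of YPS1009_Chr15 gave 2 lower at day 3. HXT6 and HXT7 alone held 6.12% of the euploid day 3 share. The ranges of counts that follow are over the fits with 1 library left out and the fit without replicate 1 of YPS1009_Chr15 at all time points. Euploid against log phase had 3 to 4 members higher and 3 to 3 lower at day 1, 2 to 4 and 2 to 4 at day 3, and 4 to 7 and 2 to 3 at day 7. Pairs against euploid numbered 2 to 5 higher and 2 to 3 lower in log phase, 3 to 5 and 0 to 3 at day 1, 6 to 10 and 1 to 2 at day 3, and 4 to 12 and 4 to 19 at day 7. Pairs with a different change numbered 6 to 8. Over the fits with 1 library left out alone, the chromosome IV median was 0.03 to 0.39, and the share of HXT5, HXT6 and HXT7 was 97.0% to 98.8%.

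Replicate numbers were not used to pair the samples. Over 190 pairs of groups the deviations of same-numbered samples had a median correlation of 0.01 (-0.52 to 0.51), and 23 pairs exceeded 0.1. Over the 30 pairs of time points of 1 strain the median was 0.03 (-0.18 to 0.42), and 4 exceeded 0.1. In YPS1009_Chr15 the alpha-cell markers set replicate 1 apart in log phase and at day 1, so the number did link these time points. With the replicate number as a block, no call on the 174 single-member results changed. Over all 36 pairs, those lower at day 7 numbered 13 in place of 12, and those with a different change 10 in place of 8. Calls were thus gained among results that the 174 did not include. That block was common to all strains, so it did not test pairing of cultures within a strain. At day 3 in euploid, DESeq2's size factors lowered the median of all genes from -0.16 to -0.53. Depth was lowest at days 3 and 7, and in YPS1009_Chr4 at day 7 HXT1 and HXT4 rested on 1 or 2 counts a library.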
